A study of Mus musculus with 816 samples.

Results

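Mouse microglia kept in culture were given interferon alpha (IFNa) at 0.0008 ug/ul for 24 h, and their RNA was sequenced well by well. The 8 cultures were chosen by their labels of treatment and duration, with no measured value, out of the 816 samples of the series, of which 784 are cultures. The study set out to describe how microglia respond to a wide panel of stimuli, with 1 RNA library for each well. The cells were primary microglia of newborn mice bought from a supplier in 3 lots, and each stimulus was given with fresh medium some days after plating. Each value is the number of reads of a gene scaled to the mapped reads of the culture (CPM). The paper calls these values TPM, but it describes no division by transcript length, and for a median of 78% of the low values the implied read count was whole to 0.1 reads, a tolerance that passes about 1 in 5 values by chance, so they were read as CPM. Levels are therefore compared between cultures and never between genes.

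The untreated cultures of the same duration (40, no stimulus, on 6 plates) served as controls. For comparison there were 10 cultures with interferon beta (IFNb) at 0.0001 ug/ul for 24 h, 9 with interferon gamma (IFNg) at 0.0001 ug/ul for 24 h, 7 with IFNa at 0.0008 ug/ul for 72 h, and 25 untreated cultures of 72 h. The 8 IFNa cultures sat on 2 plates, called plate 1 and plate 2 here, with 4 wells on each. Plate 1 also held 10 untreated wells and carried cells of the lot Sciencell_Feb15, and plate 2 held 8 untreated wells and carried cells of the lot Sciencell_May16. Wells of a plate share 1 batch of cells, so they are not separate animals, and the p-values below measure the spread between wells. All effects were taken within plates, so a fold change can differ from the ratio of the medians of the 8 and the 40 cultures. The mapped reads per culture, estimated from the smallest steps between values, ran from 1.76 M to 12 M (median 4.84 M) with IFNa and from 1.09 M to 15 M (median 5.36 M) without stimulus.

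Interferon alpha is a type I interferon, a family of secreted proteins by which cells warn each other of viruses. It binds the receptor pair IFNAR1 and IFNAR2, whose kinases JAK1 and TYK2 phosphorylate STAT2, which joins IRF9 in a complex that binds the interferon-stimulated response element in front of many genes. Microglia, the resident macrophages of the brain, take up a state dominated by such genes in viral infection, in ageing and near amyloid plaques.

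The markers of the labelled cell type were present in every IFNa culture. The 14 microglia and macrophage markers summed to between 26146 and 36675 CPM with IFNa (median 31475) and between 20498 and 33693 CPM without stimulus. Markers of some other cells were near 0 and those of others were not. The neuron list summed to a median of 2.73 CPM with IFNa, the T, B and NK cell list to 1.95 CPM and the neutrophil list to 9.15 CPM. The astrocyte list summed to a median of 18.7 CPM with IFNa (22.2 without), the fibroblast list to 36.1 CPM (116 without), the oligodendrocyte list to 152 CPM (85.7 without) and the list of endothelium and mural cells to 214 CPM (142 without). The monocyte and border macrophage list is given further below. Aqp4, Mog, Olig1, Olig2, Cldn5, Tek, Lum, Ly6g and Cd3e were at 0 in all 8 cultures. Other members of these lists were not: with IFNa, Cnp had a mean of 94.9 CPM, Pecam1 84.4, Col1a1 21.9 and Aldh1l1 7.08. In the microglia and macrophage sum Fcer1g had a mean of 13947 CPM with IFNa. Across genes, the 12 pairs of IFNa cultures on the same plate correlated at a median Pearson r of 0.848 (0.782 to 0.901), and the 16 pairs across the plates at 0.798 (0.767 to 0.854). These are descriptions across genes, which are not independent replicates.

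The central comparison asked which genes IFNa changed within 24 h. A gene was tested when it passed 5 CPM in at least 4 of the 48 cultures, and it was called when limma gave it an adjusted p (Benjamini-Hochberg, over all genes tested) under 0.05 and a difference of at least 1 on the log2(CPM + 1) scale, on which fold changes of weakly expressed genes are understated. Of 11624 genes tested, 1892 were called (16.3%), 575 higher with IFNa (4.95%) and 1317 lower (11.3%). The higher genes moved further than the lower ones: 230 of the 575 and 141 of the 1317 passed a log2 fold change of 2. The median over all genes tested was -0.24, so the typical gene was read slightly lower with IFNa, and list medians below are given beside it. That median became -0.13 when the values were first divided by median-of-ratios size factors and -0.05 after quantile normalization, and with it the share of called genes that were higher went from 30.4% to 40% and 52.6%. The number of genes above 5 CPM was also lower with IFNa, 8529 to 8947 against 8812 to 9466 on plate 1 and 7365 to 8176 against 8096 to 8586 on plate 2. These numbers were not adjusted for depth, which differs between wells.

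**Figure D1:**
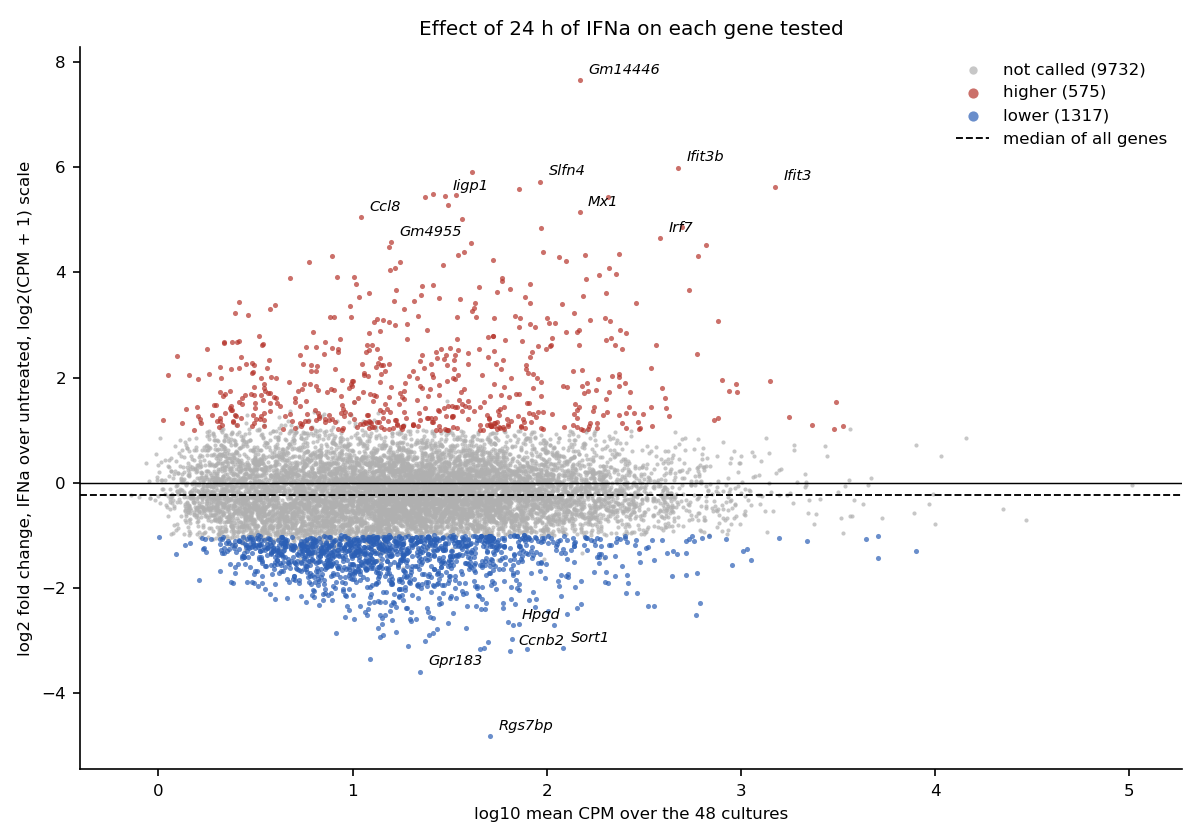
Log2 fold change of each of the 11624 genes tested (IFNa over untreated at 24 h, vertical axis) against the log10 of its mean CPM over the 48 cultures, with the 575 higher genes in red, the 1317 lower genes in blue and the median of all genes, -0.24, as the dashed line. The higher genes reach 7.67 (Gm14446) and the lower ones -4.82 (Rgs7bp).

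The signal starts at the receptor, whose genes did not pass the call. Ifnar1, which encodes 1 chain of the IFNa receptor, ran from 6.16 to 25.9 CPM (median 13.4) with IFNa and from 6.05 to 67.4 CPM (median 21) without, and the ranges overlapped almost entirely (-0.40, 95% CI -0.96 to 0.15). Of 5 interferon receptor genes tested, limma called 0, and 1 of them, Ifngr1, had an unadjusted p of 0.0302 (-0.46). Of the 21 interferon genes searched, none passed the filter on low values, so the cultures' own interferon transcripts were not tested.

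Part of the machinery behind the receptor rose steeply. Stat2, the signal carrier that sets type I signalling apart from type II, ran from 938 to 1578 CPM (median 1226) with IFNa and from 19.4 to 269 CPM (median 89.2) without (3.42, adjusted p 1.77e-21). The groups did not overlap, and Stat2 rose on each plate, by 3.09 and 3.77. Other parts were nearer the threshold. Irf9, which gives the complex its hold on DNA, ran from 246 to 653 CPM (median 361) against 52.9 to 313 CPM (median 136) (1.04), and it was not called without culture 2 (0.99), 5 (1.00) or 7 (0.95). The kinase gene Tyk2 stood at 1.02, and it was not called without culture 2 (0.97), 4 (0.95) or 6 (0.90). Jak2, a kinase of the IFNg receptor, was at 0.92 and Stat3 at 0.83, both short of the threshold of 1. Of 11 genes of JAK-STAT signalling tested, 4 were higher (36.4%) and 0 lower, with a median of 0.83. With its wells fitted alone, plate 1 gave 2 higher genes of 11 and plate 2 gave 5 of 10.

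The transcription factors of the interferon regulatory family divided by member. Irf7, which amplifies interferon production once it is made, ran from 1584 to 2427 CPM (median 1939) with IFNa and from 4.95 to 188 CPM (median 62.9) without (4.65, adjusted p 8.15e-25). Every IFNa culture lay far above every untreated one. Irf1, an activator shared with IFNg, ran from 53.7 to 111 CPM (median 80.9) against 3.96 to 41.2 CPM (median 24.8) (1.98), again without overlap. Irf5, linked to inflammatory cytokines, rose by 1.37 with overlapping ranges, and Irf2, a counterpart of Irf1, stood at 1.08 and was not called without culture 7 (0.96). In all 5 of 7 members tested were higher and 0 lower, with a median of 1.08. Irf8, a factor that maintains microglia, was at -0.62 and not called.

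Negative regulators rose beside the pathway they restrain. Usp18, a protease that strips ISG15 from proteins and blocks the receptor, ran from 399.5 to 566 CPM (median 472) with IFNa and from 3.62 to 49.3 CPM (median 14.7) without (4.38, adjusted p 6.46e-22). Socs1, an inhibitor of the JAK kinases, ran from 41.3 to 117 CPM (median 46.6) against 0.801 to 48.5 CPM (median 8.28) (2.03, adjusted p 2.13e-06), and only the top of the untreated range reached the IFNa cultures. Socs3, the related inhibitor best known from interleukin 6, was at 0.31 and not called. The ISG15 system, which attaches a small ubiquitin-like protein to others, rose at each step from tag to ligase. Isg15, the tag, ran from 434 to 700.0 CPM (median 587) against 2.76 to 68 CPM (median 16) (4.30). Uba7, the activating enzyme, rose by 2.90, Ube2l6, the conjugating enzyme, by 2.84, and Herc6, the mouse ligase, by 3.74. These genes did not overlap between the 8 IFNa cultures and the 40 untreated ones. Of 19 genes of feedback and ISG15 tested, 10 were higher and 0 lower, with a median of 1.12.

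**Figure D2:**
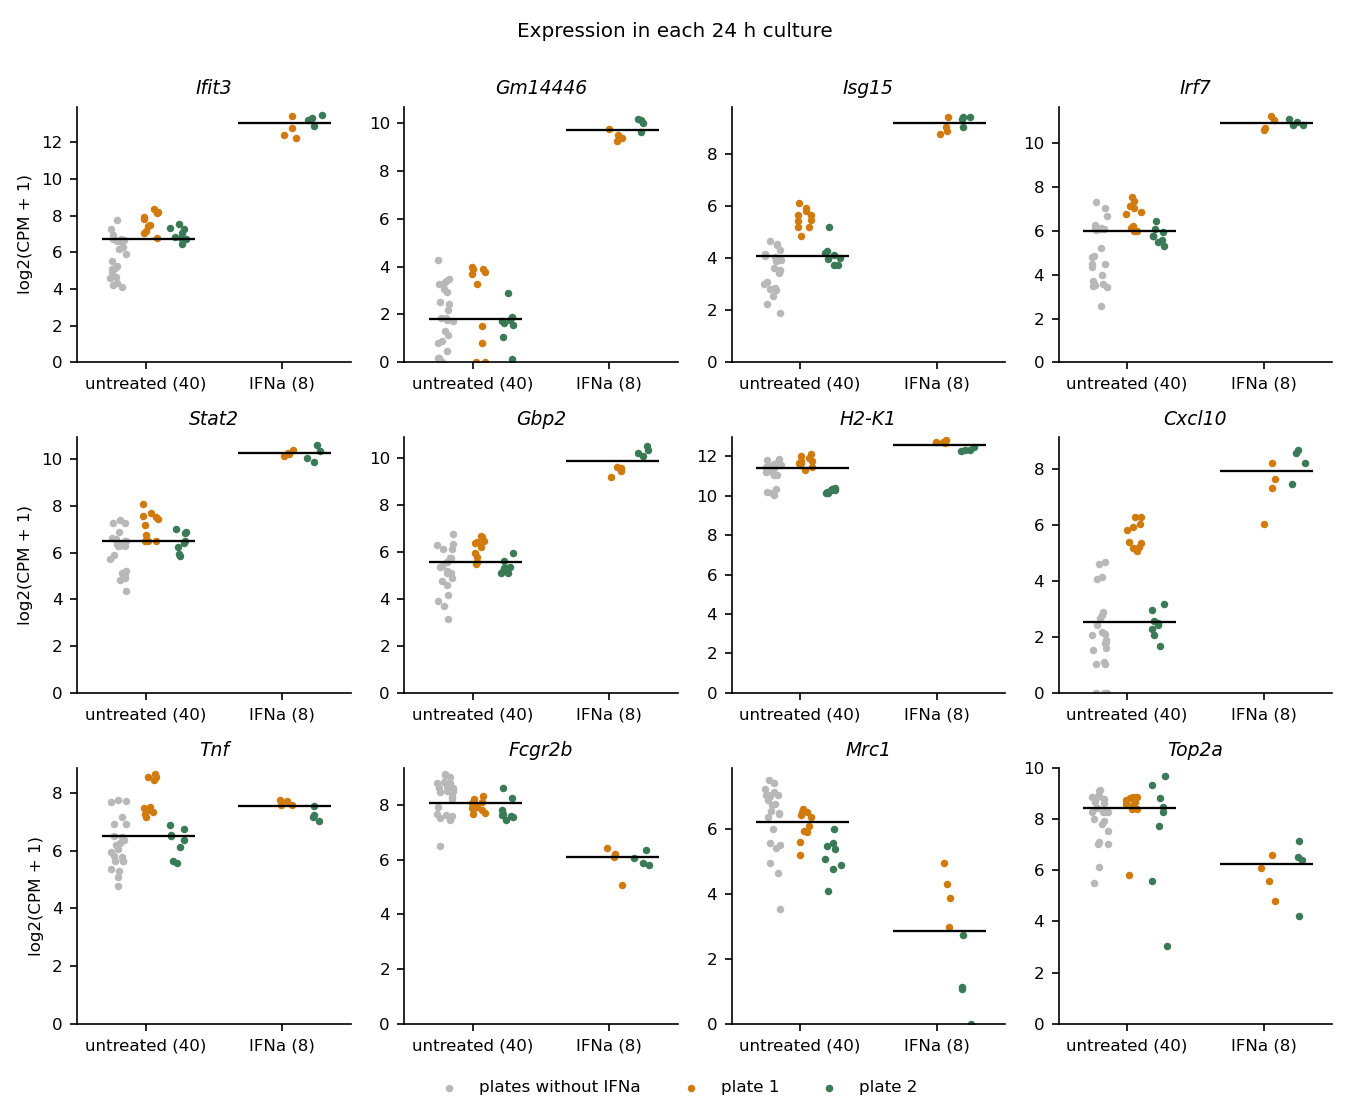
Expression of 12 genes in each untreated culture (40) and each IFNa culture (8) at 24 h, on a log2(CPM + 1) axis, with colours for plate 1 and plate 2, grey for untreated cultures of plates without IFNa, and black bars at the group medians. Ifit3, Gm14446, Isg15, Irf7, Stat2 and Gbp2 separate all IFNa cultures from all untreated ones, while Tnf lies within the range of the untreated cultures.

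The genes that block viral RNA were among the lists with the largest medians. The IFIT proteins bind viral RNA and stop its translation, and the OAS proteins sense it and make a signalling molecule. Ifit3 ran from 4813 to 11459.7 CPM (median 8671) with IFNa and from 16.3 to 324 CPM (median 104) without (5.63, 95% CI 5.23 to 6.04, adjusted p 5.44e-29). Gm14446, a member of the same family that RefSeq names Ifit1bl1, ran from 601 to 1153 CPM (median 826) against 0 to 18.4 CPM (median 2.49) and had the largest fold change among the named genes (7.67, 95% CI 6.85 to 8.48). Ifit3b rose by 5.99, Ifit2 by 5.01 and Ifit1 by 4.32. Every IFNa culture exceeded every untreated culture for these 5 genes. Reads of such near-identical paralogs may be divided between them, so the split between Ifit3 and Ifit3b is uncertain. Among the OAS genes, Oasl1 ran from 849 to 1687 CPM (median 1089) against 3.99 to 124 CPM (median 31.5) (4.34), Oas3 rose by 3.88 and Oas2 by 3.47. In all, 11 of 13 IFIT and OAS genes tested were higher (84.6%) and 0 lower, with a median of 3.47, which lies 3.71 above the median of all genes.

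Other antiviral effectors followed the same course. Mx1, a GTPase that traps influenza virus in the nucleus, ran from 659.7 to 918 CPM (median 791) with IFNa and from 2.2 to 69.1 CPM (median 13.5) without (5.14, adjusted p 2.28e-22). Rsad2, also called viperin, makes a nucleotide that ends viral RNA chains and lies beside Cmpk2, which supplies its substrate. Rsad2 ran from 1908 to 3264 CPM (median 2454) against 18.6 to 338 CPM (median 60.3) (4.87) and Cmpk2 from 799.7 to 1527 CPM (median 1102) against 3.18 to 93.9 CPM (median 18) (5.45). Neither overlapped between the groups, and Ifitm3, a membrane protein that hinders viral entry, also stood apart, from 1559.9 to 3181 CPM (median 2444) against 39.9 to 536 CPM (median 154) (3.68). Isg20, an exonuclease of single-stranded RNA, rose by 5.48 and Slfn4, of the Schlafen family, by 5.73. Samhd1, which drains the nucleotides that retroviruses need, rose by 2.62 and Bst2, or tetherin, by 2.63. Of 43 such genes tested, 38 were higher (88.4%), with a median of 2.60, and 1 was lower. That one was Ifi27, which ran from 0.44 to 40.7 CPM (median 8.94) with IFNa and from 14.7 to 87.5 CPM (median 55.1) without (-2.22, adjusted p 6.44e-10), while its neighbour in the family, Ifi27l2a, rose by 2.24. Ifitm2 was at -0.74 and not called, although Ifitm3 rose.

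Sensors of nucleic acid were raised, while an adaptor behind them was not called. The helicase genes Ddx58 (RIG-I), Ifih1 (MDA5) and Dhx58, whose proteins detect viral RNA in the cytoplasm, rose by 2.72, 3.13 and 2.97, without overlap between the groups. Mavs, the adaptor on mitochondria that RIG-I and MDA5 engage, was at -0.22 and not called. Tlr3, the endosomal receptor for double-stranded RNA, ran from 28.1 to 83.4 CPM (median 64.7) against 0 to 27.7 CPM (median 8.1) (3.31), and Zbp1, a sensor that can trigger necroptosis, ran from 219.6 to 353 CPM (median 299.6) against 4.25 to 53.8 CPM (median 16.1) (3.68). The DNA sensor gene Aim2 rose by 2.24 and the DNA exonuclease gene Trex1 by 3.16. Several DNA-binding PYHIN genes rose, Pydc4 (RefSeq Ifi213) by 5.49, Ifi205 by 4.57, Gm4955 (RefSeq Ifi206) by 4.57, Mnda by 4.22 and Ifi204 by 3.12, though the sharing of reads within this family was not resolved. In all, 17 of 24 sensor genes tested were higher (70.8%) with a median of 2.85. The helicase gene Dhx9 alone was lower (-1.13), a call that ended without culture 2 (-0.92) or 7 (-0.96).

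Levels of some PYHIN genes differed between the plates, which also held different cell lots. Pyhin1 ran from 77.1 to 140.1 CPM in the IFNa wells of plate 1 and from 1381 to 2173 CPM in those of plate 2. The untreated wells differed in the same way, from 1.13 to 11.3 CPM and from 37.7 to 86.1 CPM, so that the fold changes were alike, 4.00 and 4.68. Ifi202b ran from 252 to 491 CPM with IFNa against 38.1 to 115 CPM without on plate 1, and it was listed at 0 in all wells of plate 2. Its fold change over both plates, 1.16, therefore rests on plate 1, and it was 1.00 and no longer called without culture 2, and 0.91 and not called with the library pool as block.

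Guanylate-binding proteins and immunity-related GTPases attack membranes around parasites and bacteria within cells. Gbp2 ran from 584 to 1478 CPM (median 956) with IFNa and from 7.8 to 108 CPM (median 46.8) without (4.09, adjusted p 7.46e-19). Iigp1 ran from 117 to 191 CPM (median 166) against 0 to 10.3 CPM (median 3.24) (5.45) and Ifi47 from 579 to 942 CPM (median 839) against 13.5 to 131 CPM (median 52.2) (3.95). All 3 separated the groups completely. Igtp rose by 3.78, Irgm1 by 3.33, Irgm2 by 3.41 and Gbp7 by 4.33, and Tgtp2, a near copy of Tgtp1, by 5.92. Of 18 genes tested, 16 were higher (88.9%) and 0 lower, with a median of 3.39. The 2 others, Gbp2b and Gbp6, stayed under the threshold, though both were called after quantile normalization (Gbp2b 1.39, Gbp6 1.16). Gbp2b ran from 0 to 22.2 CPM (median 0.474) with IFNa (0.95), and its fold change passed 1 without culture 2 (1.29), 5 (1.05), 6 (1.05) or 7 (1.05), and when plate 2 was left out (1.64). Gbp6 ran from 0 to 13.9 CPM (median 0) (0.85) and was listed at 0 in most cultures of both groups.

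The promoters of these genes are shown because part of the higher genes hold letters there that the calls did not use. The window of 300 bases runs from 250 before to 50 after the start of each gene (RefSeq, build GRCm38.p6, in the direction of the gene). The search was for GAAANNGAAA on both strands, the core of the interferon-stimulated response element, and capitals mark each match in 4 promoters of genes that rose by more than 4 on the log2 scale. These 4 were chosen because they hold matches, and most promoters of higher genes hold none. Ifit3 lies at chr19:34583279-34583578 on the plus strand, Isg15 at chr4:156200769-156201068 on the minus strand, Rsad2 at chr12:26456403-26456702 on the minus strand and Gbp2 at chr3:142620413-142620712 on the plus strand.
Ifit3: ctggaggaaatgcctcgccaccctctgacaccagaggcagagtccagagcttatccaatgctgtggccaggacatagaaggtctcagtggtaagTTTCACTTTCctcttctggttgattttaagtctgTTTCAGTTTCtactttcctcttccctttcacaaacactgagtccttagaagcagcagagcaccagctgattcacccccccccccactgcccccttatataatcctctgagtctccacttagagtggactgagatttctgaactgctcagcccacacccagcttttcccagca
Isg15: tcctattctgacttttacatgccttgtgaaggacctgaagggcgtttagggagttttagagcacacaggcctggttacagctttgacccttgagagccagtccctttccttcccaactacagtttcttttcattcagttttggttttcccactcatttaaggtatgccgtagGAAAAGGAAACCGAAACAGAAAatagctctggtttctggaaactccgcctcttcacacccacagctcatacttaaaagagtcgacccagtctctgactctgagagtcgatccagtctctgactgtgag
Rsad2: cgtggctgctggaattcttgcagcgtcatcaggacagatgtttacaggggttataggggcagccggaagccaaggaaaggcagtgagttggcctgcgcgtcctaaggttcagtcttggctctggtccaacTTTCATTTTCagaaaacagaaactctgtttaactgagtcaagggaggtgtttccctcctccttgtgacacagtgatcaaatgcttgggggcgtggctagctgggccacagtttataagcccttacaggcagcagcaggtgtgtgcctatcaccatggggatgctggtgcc
Gbp2: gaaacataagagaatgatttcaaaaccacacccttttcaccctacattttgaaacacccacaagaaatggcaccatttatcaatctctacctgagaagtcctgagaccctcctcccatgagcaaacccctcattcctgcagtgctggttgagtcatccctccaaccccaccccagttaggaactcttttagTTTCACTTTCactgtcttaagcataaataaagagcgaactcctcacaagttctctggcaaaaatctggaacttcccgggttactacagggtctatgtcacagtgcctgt
The matches begin 156 and 122 bases before the start in Ifit3, 78, 72 and 66 bases before it in Isg15, where they overlap, 120 in Rsad2 and 59 in Gbp2.

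The same letters were more frequent in front of the genes that rose than elsewhere. Of all 32851 promoters in the table, 1131 held at least 1 match (3.44%), and of the 8744 tested genes with a promoter there 290 did (3.32%). Among called genes with a promoter, 79 of the 424 that were higher held a match (18.6%), against 26 of the 1016 that were lower (2.56%) and 185 of the 7304 not called (2.53%). Among the 168 that rose by at least 2 on the log2 scale the share was 32.7% (55 genes). Of the 20 named genes with the largest rise, 16 had a promoter in the table and 9 of these held a match, Gm14446, Ifit3b, Tgtp2, Ifit3, Pydc4, Rsad2, Phf11a, Gm4955 and Ifi205, while Slfn4, Ms4a4c, Isg20, Cmpk2, Ccl8, Ifit2 and Irf7 held none. Of 11 named genes with the largest fall and a promoter there, 0 did. The letters TTCNNNGAA, the core of the gamma-activated site, were found in 9.91% of higher, 7.28% of lower and 6.53% of uncalled genes, against 8.30% of all promoters, in 13.1% of those that rose by at least 2 and in 3 of the 16 named rises (18.8%). A match describes the sequence and shows no binding. Missing from the promoter table were Iigp1, Pou3f1, Ly6a and Mx1 among the named rises and Cd109, Sort1, Slc1a5 and Fn1 among the named falls.

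**Figure D3:**
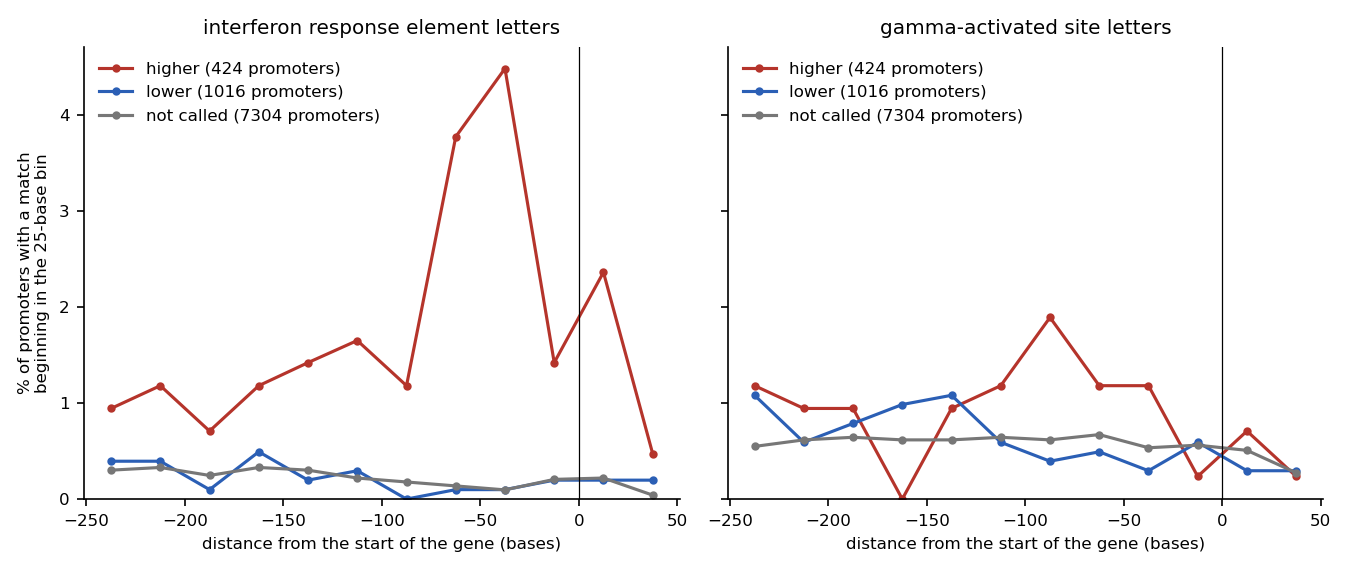
Percent of promoters with a match that begins in each 25-base bin, against the distance in bases from the start of the gene, for genes that were higher (424 promoters), lower (1016) or not called (7304) with IFNa, with the interferon response element letters on the left and the gamma-activated site letters on the right. Response element matches of the higher genes gather from 75 to 25 bases before the start, where the bins hold 3.77% and 4.48%.

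Presentation of peptides to CD8 T cells uses MHC class I, and nearly the whole route was raised. H2-K1, a classical heavy chain, ran from 4965 to 7246 CPM (median 6124) with IFNa and from 1064 to 4494 CPM (median 2687) without (1.54, adjusted p 3.63e-10). B2m, the common light chain, ran from 2343 to 4914 CPM (median 3416) against 885 to 2093 CPM (median 1324) (1.26), with 0.90 on plate 1, where it was not called alone, and 1.63 on plate 2. H2-K1 was at 1.03 and 2.09. Both separated the groups, and so did Tap1, which forms the peptide transporter with Tap2, at 147 to 278 CPM (median 196) against 7.35 to 62.5 CPM (median 31) (2.71). Tapbp, which loads the peptide, rose by 1.94, the immunoproteasome gene Psmb8 by 2.00, and Nlrc5, the transactivator of class I genes, by 3.10. The non-classical chains H2-Q6 and H2-Q7 rose by 3.02 and 3.09, with the reservation that reads of H2 genes are hard to assign. Of 23 genes tested, 21 were higher (91.3%) and 0 lower, with a median of 1.94. MHC class II, which serves CD4 T cells, took no such course: of 4 genes tested, 0 were higher. Of them H2-Eb1 ran from 0 to 5.63 CPM (median 0.785) with IFNa against 0 to 22.8 CPM (median 0.293), and H2-DMa was lower at -1.11, a call that ended without culture 1 (-0.96), 6 (-0.76) or 8 (-0.94).

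Chemokines, which draw other leukocytes, rose in 11 of 17 genes tested (64.7%), with a median of 1.03. Some of the 11, not named here, lay near the threshold of 1. Their calls ended without single cultures, on 1 plate alone (0.69 for 1 of them on plate 1) or after quantile normalization (0.94 and 0.99). Cxcl10, a ligand of CXCR3 on T cells, ran from 63.6 to 410.4 CPM (median 245) with IFNa and from 0 to 76.9 CPM (median 4.83) without (3.63, adjusted p 7.11e-10), and Cxcl9, of the same group, ran from 15.4 to 83.7 CPM (median 42.2) against 0.187 to 19.2 CPM (median 4.83) (2.63). Their lowest IFNa cultures lay within the untreated range. Ccl8, a ligand for monocytes, ran from 6.81 to 129 CPM (median 61.4) against 0 to 5.39 CPM (median 0.598) (5.06), and Ccl5 ran from 1578 to 4858 CPM (median 2517) against 42.1 to 1279 CPM (median 489) (1.74), both without overlap. Ccl2 rose by 2.12 and Ccl9 by 1.53. Cxcl14, the 1 chemokine that was lower, ran from 39.9 to 291 CPM (median 158) against 119 to 719.8 CPM (median 403) (-1.09) and was not called without culture 6 (-0.99) or with size factors (-0.95).

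Of the inflammatory cytokines named for Toll-like receptor responses, Tnf and Il1b were not called. Tnf ran from 129.7 to 216 CPM (median 188) with IFNa, from 26.2 to 409.7 CPM (median 89.8) in all untreated cultures and from 47 to 409.7 CPM (median 148) in the 18 untreated cultures of the IFNa plates (0.36, 95% CI -0.06 to 0.79, adjusted p 0.204). Within plates it was -0.18 on plate 1 and 0.95 on plate 2, where the IFNa wells ran from 129.7 to 186 CPM, all above the untreated wells at 47 to 117 CPM. On plate 1 the IFNa wells ran from 190.4 to 216 CPM and were all of 1 library pool, above the 6 untreated wells of that pool (143 to 184 CPM) and below the 4 of the other pool (355 to 409.7 CPM), so the effect on Tnf depends on how pools are treated. Il1b ran from 12 to 71.2 CPM (median 41) with IFNa, from 0 to 65.3 CPM (median 9.22) in all untreated cultures and from 8.82 to 65.3 CPM (median 42.3) in those of the same plates, where the ranges coincided (0.33, 95% CI -0.41 to 1.06, adjusted p 0.554). Without the plate term Il1b was at 1.54 and called, so its difference lies between plates. Of 16 genes tested 5 were higher and none lower (median 0.71), and 7 were higher with size factors, 8 after quantile normalization and 11 without the plate term. Il1rn, the antagonist of the interleukin 1 receptor, ran from 33.3 to 375 CPM (median 95.4) against 3.32 to 51.1 CPM (median 19.3) (2.25). Il18bp, which neutralises interleukin 18, ran from 21.6 to 118 CPM (median 48.6) against 0.845 to 12.4 CPM (median 4.39) (3.11), and Il18 itself rose by 1.76. Il15, which sustains NK and CD8 T cells, rose by 2.19, and Tnfsf10, the death ligand TRAIL, by 3.15.

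Most surface receptors and ligands tested rose, while 2 Fc receptor genes fell. Fcgr1, the high-affinity receptor for IgG, ran from 519.5 to 1257 CPM (median 981) with IFNa and from 27.6 to 93.3 CPM (median 59.1) without (3.61, adjusted p 7.61e-26), and Fcgr4, another activating receptor, ran from 236 to 984 CPM (median 637) against 20.3 to 182 CPM (median 58.7) (2.86). Fcgr2b, the inhibitory receptor, ran from 32.7 to 85.7 CPM (median 67.8) against 89.7 to 573 CPM (median 273), entirely below the untreated cultures (-1.91, adjusted p 1.12e-12), and Fcgr3 fell by 1.33, with -0.84 on plate 1, where it was not called alone, and -1.86 on plate 2. Ligands that restrain T cells and phagocytes rose: Cd274 (PD-L1) ran from 40.8 to 91.7 CPM (median 79.4) against 1.49 to 20.5 CPM (median 7.31) (3.02), Lgals9 rose by 1.96 and Cd47, the signal against engulfment, by 1.88. The costimulator gene Cd86 rose by 2.37. Ly6a, a surface marker of interferon exposure, ran from 23.3 to 318 CPM (median 132) against 0 to 25.8 CPM (median 3.12) (5.29), and Ly6e, which hinders coronavirus entry, from 2190.4 to 3494 CPM (median 2939) against 80.6 to 796 CPM (median 319.6) (3.08). In all, 12 of 16 genes of this group tested were higher (75.0%) and 2 lower, with a median of 1.92. Some of the 12, not named here, were not called with log2(CPM + 5) (0.70 and 0.92) or without culture 5 (1.00 and 0.89).

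Of 16 genes of inflammatory cell death tested, 4 were higher (25%) and 0 lower, with a median of 0.67, which lies 0.92 above that of all genes. Casp1 and Casp4, the caspases that cleave gasdermin D, rose by 1.21 and 1.95, and Gsdmd, their substrate, by 1.45. Mlkl, the executor of necroptosis, ran from 36.6 to 95.2 CPM (median 52.1) with IFNa and from 0.221 to 23.3 CPM (median 5.55) without (3.06, adjusted p 4.49e-09). All 4 were above the untreated median in each of the 8 cultures.

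**Figure D4:**
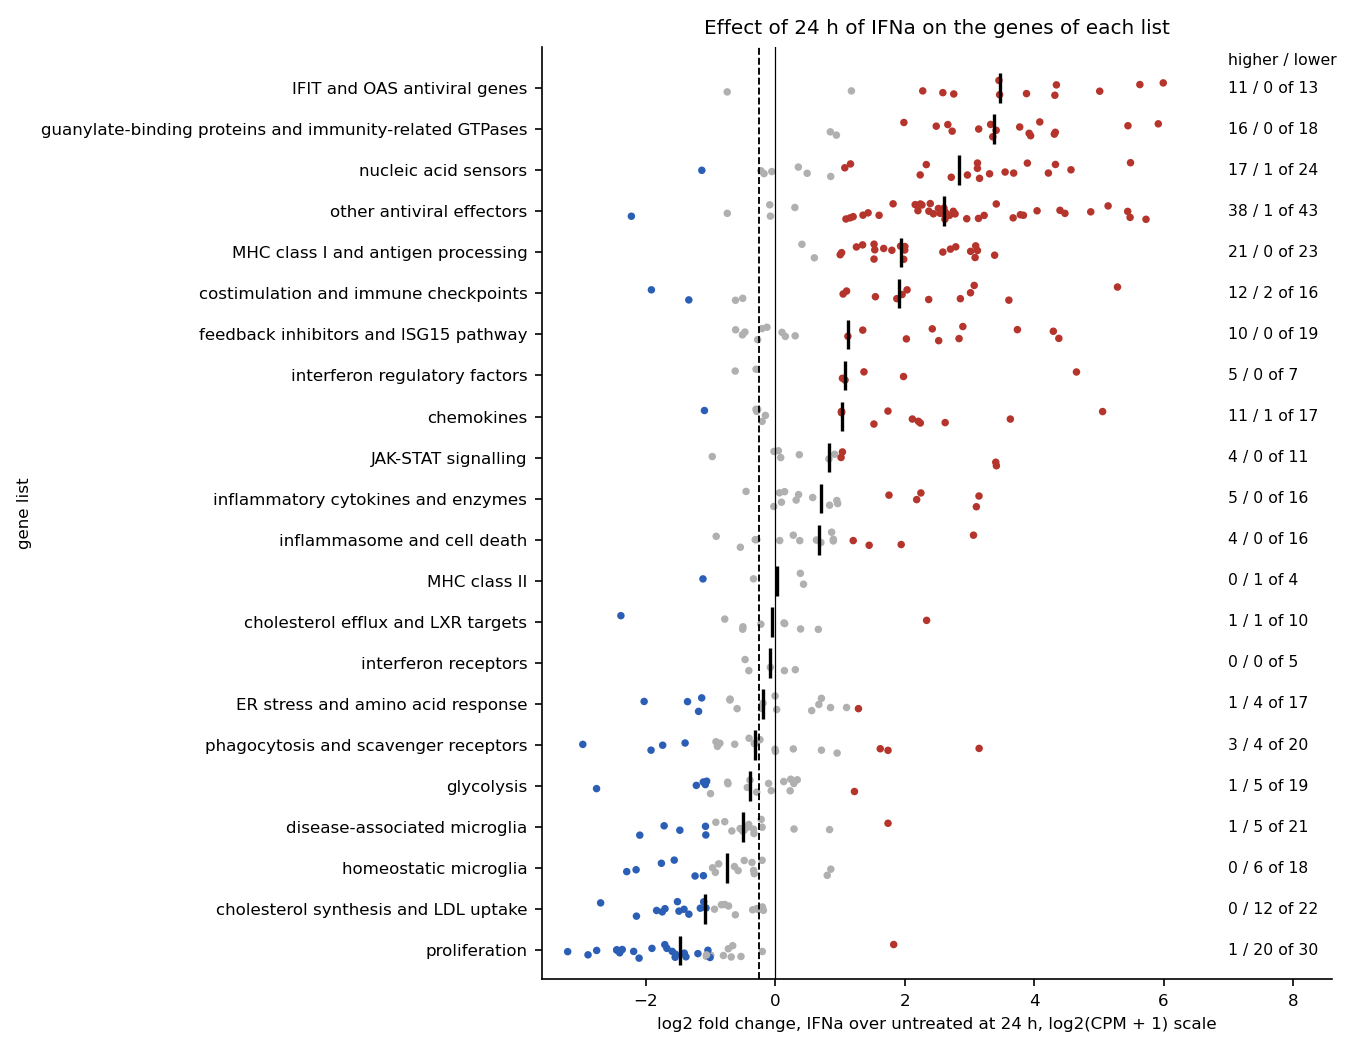
Log2 fold change with IFNa at 24 h of each tested gene of 22 lists, red when called higher, blue when called lower and grey when not called, with the list median as a black bar, the median of all genes (-0.24) dashed, and the counts at the right. Antiviral, sensor and GTPase lists lie furthest to the right, and proliferation and cholesterol synthesis furthest to the left, also with size factors and after quantile normalization.

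Genes that make cholesterol were lower. Srebf2, the transcription factor that turns them on, ran from 17.6 to 47.6 CPM (median 25.7) with IFNa and from 34.3 to 135 CPM (median 85) without (-1.33, adjusted p 1.29e-08). Fdft1, which commits the pathway to sterols, ran from 1.87 to 37.8 CPM (median 8.87) against 34.1 to 215 CPM (median 80.0) (-2.69, adjusted p 2.62e-10), and every IFNa culture was below the untreated median. Sqle and Cyp51, further along, fell by 1.74 and 1.83, Hmgcs1, at the entry, by 1.48, and Stard4, a cholesterol carrier, by 2.14. Of 22 genes tested, 0 were higher and 12 lower (54.5%), with a median of -1.08, 0.84 below that of all genes. With size factors 11 were lower, after quantile normalization 9 and with log2(CPM + 5) 7, and with its wells fitted alone plate 1 gave 7 lower genes and plate 2 gave 5 of 21 tested. On the side of export, Abcg1, which hands cholesterol to lipoproteins, ran from 133 to 211 CPM (median 177) against 14.7 to 90.9 CPM (median 32.4) and rose by 2.34, the only gene called higher of 10 tested. Scd2, a desaturase, fell by 2.38, and Apoe was at -0.50.

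Markers by which resting microglia are known were lower in part. Cx3cr1, the fractalkine receptor, ran from 64.9 to 187 CPM (median 116) with IFNa and from 33.1 to 529 CPM (median 379.9) without (-1.24, adjusted p 0.000204). Tmem119 ran from 0.6 to 16.6 CPM (median 5.5) against 1.63 to 64.7 CPM (median 14.6) (-2.15), and Gas6, a bridge to dying cells, ran from 124 to 288 CPM (median 157) against 306 to 1419.5 CPM (median 596), without overlap (-2.29, adjusted p 3.41e-22). Fcrls fell by 1.76. Csf1r, the receptor on which microglia depend, was at -0.63, short of the threshold. Of 18 homeostatic genes tested, 0 were higher and 6 lower (33.3%), with a median of -0.75, and with size factors 1 was higher and 5 lower.

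The signature of microglia near plaques did not appear as a whole. Axl, a receptor for Gas6 on dying cells, ran from 278 to 552 CPM (median 428) with IFNa and from 27.4 to 211 CPM (median 125) without and was the only 1 of 21 such genes that was higher (1.74, adjusted p 3.11e-11). Itgax ran from 2.2 to 117 CPM (median 42.8) against 14.8 to 703 CPM (median 286) (-2.09), Cd9 fell by 1.71 and Igf1 by 1.47, and Trem2 was at -0.42. In all 1 was higher (4.76%) and 5 were lower (23.8%), beside 4.95% and 11.3% of all genes tested. The median was -0.50, and with size factors 3 were lower. Among genes of phagocytosis and complement, Cfb, a protease of the alternative pathway, ran from 35.2 to 306 CPM (median 94.2) against 2.04 to 61.8 CPM (median 10.3) (3.15) and C3 rose by 1.62, whereas the integrin gene Itgam fell by 1.74 and the scavenger receptor genes Mrc1 and Stab1 by 2.97 and 1.39. Mrc1 ran from 0 to 29.9 CPM (median 6.28) against 10.6 to 179 CPM (median 73.7). Of 20 such genes tested 3 were higher (15%) and 4 lower (20%), beside 4.95% and 11.3% of all genes tested.

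Of 10 markers of border macrophages and monocytes 4 were tested, and 3 of these were lower and 0 higher. Of the 10, 6 had a mean under 1 CPM with IFNa. The list summed to a median of 126 CPM with IFNa (74.1 to 175) and 326 CPM without (130.2 to 494). Pf4 ran from 53.1 to 158 CPM (median 93.2) against 53.7 to 359 CPM (median 201) (-1.18, not called without the plate term at -0.85) and S100a4 from 0.567 to 20.8 CPM (median 9.23) against 6.79 to 87.2 CPM (median 37.4) (-1.90). Whether fewer such cells were present was not tested. Single markers named for other cells were also called: Cnp, an oligodendrocyte enzyme, ran from 53.9 to 146 CPM (median 86.9) against 3.67 to 51.5 CPM (median 21) and rose by 2.05, Kdr, of endothelium, rose by 1.76 (not called without plate 1), and Aldoc, an astrocyte aldolase, fell by 1.70 (not called with log2(CPM + 5) or on plate 2 alone).

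Cell cycle genes fell at 24 h. Top2a, the topoisomerase that untangles chromosomes, ran from 17.6 to 141 CPM (median 75.7) with IFNa and from 7.31 to 822 CPM (median 344) without (-2.10, adjusted p 0.000505). Ccnb2, a mitotic cyclin, ran from 0 to 15.7 CPM (median 5.98) against 1.38 to 181 CPM (median 73.6) (-3.20, adjusted p 5.13e-06), and Rrm2, which makes deoxynucleotides, ran from 0 to 8.94 CPM (median 2.19) against 0 to 74.4 CPM (median 23.2) (-2.89). All 8 IFNa cultures were below the untreated median for Top2a. For Ccnb2 and Rrm2 the same holds by the rule that named the largest falls. In each of these genes some untreated cultures lay within the IFNa range. The kinase gene Plk1 fell by 2.75, the centromere gene Cenpa by 2.44 and the replication gene Mcm2 by 1.70. Of 30 genes tested, 20 were lower (66.7%), with a median of -1.47, 1.23 below that of all genes, and with size factors 17 and after quantile normalization 16 were lower. With its wells fitted alone, plate 2 gave 4 lower genes and plate 1 gave 16. Pcna, the clamp of the replication fork, was at -0.53 and not called. Without the wells labelled as edge, a setting that kept the corner well, 24 genes of the list were lower. Tpx2, a spindle factor, went the other way: it ran from 95.6 to 413 CPM (median 320.3) against 9.14 to 209 CPM (median 85.2) (1.83, adjusted p 1.99e-05), the only gene of the list that was higher.

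Single genes of metabolism were called. Pdk1, which holds pyruvate back from mitochondria, ran from 0 to 7.33 CPM (median 1.21) with IFNa and from 1.84 to 36.2 CPM (median 14.3) without (-2.76, adjusted p 2.72e-08). Eno1 fell by 1.22, but it was not called without the plate term (-0.98) or on plate 1 alone (-0.71), while Pfkfb3, whose product drives glycolysis, ran from 178 to 465 CPM (median 279.6) against 18.4 to 227 CPM (median 111) (1.23). Of 19 glycolysis genes tested 1 was higher (5.26%) and 5 lower (26.3%), beside 4.95% and 11.3% of all genes tested. Their median was -0.39, and with size factors 2 were lower. Psat1, an enzyme of serine synthesis, ran from 7.48 to 41.3 CPM (median 20.1) against 24 to 125 CPM (median 53.2) (-2.02). Among 17 genes of the ER stress and amino acid response, 4 were lower (23.5%), among them Psat1 and the chaperone gene Hsp90b1 (-1.18). Only 1 was higher (5.88%), Ddit3 (1.29). The single rises of both lists are near the share of all genes. Ddit3 was not called with log2(CPM + 5) (0.88), on plate 1 alone (1.22) or on plate 2 alone (1.36), and Hsp90b1 not on plate 1 alone (-0.96). With log2(CPM + 5) 0 genes of that list were higher and 2 lower.

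Several of the largest falls are given here gene by gene. Rgs7bp, which anchors a regulator of G proteins, ran from 0 to 4.18 CPM (median 0.723) with IFNa and from 10.5 to 224 CPM (median 51.9) without (-4.82, 95% CI -5.59 to -4.06, adjusted p 2.25e-15), and the groups did not overlap. Gpr183, a receptor for an oxysterol that guides immune cells, ran from 0 to 11.4 CPM (median 0.259) against 6.41 to 45.2 CPM (median 26) (-3.59). Sort1, a sorting receptor for progranulin, ran from 3.52 to 46.5 CPM (median 16.2) against 31.7 to 239 CPM (median 141) (-3.15). Cd33, an inhibitory receptor of microglia and a risk gene for Alzheimer's disease in people, ran from 0 to 10.9 CPM (median 4.11) against 3.22 to 83.3 CPM (median 31.1) (-2.78), and the glutamine transporter gene Slc1a5 from 0 to 10.6 CPM (median 1) against 5.51 to 48.4 CPM (median 21.8) (-3.10). Hpgd, which inactivates prostaglandins, ran from 2.48 to 27.7 CPM (median 10.8) against 33.4 to 179 CPM (median 62), without overlap (-2.71, adjusted p 9.57e-17). Others were Cd109 (-3.17), Slc9a9 (-3.16), the fibroblast marker gene Fn1 (-3.02), 1700063D05Rik (-3.00) and the drug exporter gene Abcg2 (-2.87). Among the largest rises not yet given were the monocyte gene Ms4a4c (5.59), the transcription factor gene Pou3f1 (5.45) and Phf11a (4.84), each without overlap.

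The size of the effect differed between the plates for some genes. Of the 1892 called genes, 1109 passed a log2 fold change of 1 with the same sign on each plate, but these genes were chosen on the fold over both plates, which favours agreement. A limma test of the difference between plates called 84 of the 11624 genes, 51 of them among the 1892, and 56 of the 84 had the higher signed effect on plate 1. Several antiviral genes responded more on plate 2, and there the untreated wells were lower. Rsad2 ran from 2170.4 to 3264 CPM with IFNa and from 160.3 to 338 CPM without on plate 1, a rise of 3.55, and from 1908 to 2756 CPM against 18.6 to 41.1 CPM on plate 2, a rise of 6.30. Cxcl10 ran from 63.6 to 291 CPM against 32.6 to 76.9 CPM on plate 1 (1.64) and from 174 to 410.4 CPM against 2.16 to 7.91 CPM on plate 2 (5.77). The wells with IFNa were thus closer between plates than those without for Rsad2. The activation marker Cd69 ran from 0 to 17.3 CPM against 0.845 to 12.8 CPM on plate 1 and from 22.5 to 65.2 CPM against 0.941 to 5.22 CPM on plate 2, so its fold change of 1.55 came from plate 2 alone. Plate and cell lot cannot be told apart.

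Interferon beta signals through the same receptor, so a direct comparison gives the differences between the type I interferons. The doses were not equal, 0.0008 ug/ul for IFNa and 0.0001 ug/ul for IFNb. The stimuli shared no plate, so with plate as block each effect was taken against the untreated wells of its own plates. The IFNb cultures held cells of the lots Sciencell_March15 and Sciencell_Feb15. Of 11827 genes tested, 14 were called (0.118%), 2 higher with IFNa (0.0169%) and 12 lower (0.101%), and 1372 had an unadjusted p under 0.05. The count was 126 without a plate term (32 higher and 94 lower), 22 without IFNa culture 4 and 28 without IFNa culture 8. With IFNb, 567 genes were higher than in untreated wells (4.89%) and 920 lower (7.94%). Side by side over untreated wells, Ifit3 rose by 5.63 with IFNa and 5.80 with IFNb, Irf7 by 4.65 and 5.47, and H2-K1 by 1.54 and 1.68. On an IFNb plate the untreated wells differed between library pools. H2-K1 ran from 2366 to 3673 CPM in the pool that held the IFNb wells and from 1064 to 1282 CPM in the other.

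Several of the called differences were in genes near 0 on plate 2, where cell lot and stimulus cannot be told apart. Gbp6 ran from 0 to 13.9 CPM (median 0) with IFNa and from 11.9 to 64.4 CPM (median 47.4) with IFNb (-3.84, adjusted p 5.34e-05), and on plate 1 the IFNa wells ran from 0 to 13.9 CPM. Ifi202b ran from 264 to 672 CPM (median 355) with IFNb (-2.0), against 252 to 491 CPM in the IFNa wells of plate 1 and 0 in those of plate 2. Ms4a4b ran from 51.4 to 267 CPM (median 105) with IFNb (-2.63), against 38.8 to 87.4 CPM on plate 1 and from 0 to 2.76 CPM on plate 2, and it was not called without culture 5 (-2.33) or 7 (-2.33). For 2 transporter genes the fold changes over untreated wells were -2.83 and -2.90 on plates 1 and 2 for Abcg2 and -2.43 and -3.82 for Slc1a5. Abcg2 ran from 0 to 18.8 CPM (median 1.63) with IFNa and from 12.1 to 54.7 CPM (median 20.9) with IFNb (-2.77, adjusted p 0.00568), and Slc1a5 ran from 0 to 10.6 CPM (median 1) and from 5.16 to 38.9 CPM (median 9.15) (-2.55, adjusted p 0.00568). With cultures of at least 2 M mapped reads neither was called against IFNb (Abcg2 -2.70, Slc1a5 -1.77), and 3 of the 14 genes stayed called. Over untreated wells Abcg2 was at -2.87 with IFNa and -0.10 with IFNb, and Slc1a5 at -3.10 and -0.55. Gm14446 was at 7.67 and 6.03, a difference of 1.64 that was not called, though with log2(CPM + 5) it was (1.51).

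Interferon gamma is the type II interferon and signals through another receptor, so it is set beside the type I response here. Of 11814 genes tested directly, 1077 were called (9.12%), 386 higher with IFNa (3.27%) and 691 lower (5.85%). Here too the stimuli shared no plate, and each effect was taken against the untreated wells of its own plates. The IFNg cultures held cells of the lots Sciencell_March15 and Sciencell_Feb15, and plate 2 of IFNa held Sciencell_May16. With the library pool as block 902 genes were called, 749 of them among the 1077. The doses differed, 0.0008 ug/ul against 0.0001 ug/ul for IFNg. Gm14446 ran from 601 to 1153 CPM (median 826) with IFNa and from 0 to 18.1 CPM (median 2.52) with IFNg, where untreated wells ran from 0 to 18.4 CPM (median 2.49) (7.68, adjusted p 9.94e-16). Slfn4 ran from 259.7 to 712 CPM (median 525) and from 4.49 to 19.4 CPM (median 9.71) (5.12), and Isg20 ran from 73.5 to 380.1 CPM (median 170.4) and from 0.27 to 9.06 CPM (median 1.68) (4.94). In these 3 genes the IFNg wells lay within the untreated range. Pydc4 (4.67), Ms4a4c (4.52) and Gm4955 (4.27) were also higher with IFNa, and 7 of 13 IFIT and OAS genes were (53.8%), 0 lower, with a median of 1.29.

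In the other direction, MHC class II genes were among the largest differences. H2-Aa ran from 916 to 1726 CPM (median 1029) with IFNg and from 0 to 1.83 CPM (median 0) with IFNa (-8.10, adjusted p 1.3e-18). Cd74, the chaperone of class II, ran from 88.3 to 169 CPM (median 132) and from 0 to 4.72 CPM (median 0) (-6.02), and H2-Eb1 and H2-Ab1 were lower with IFNa by 6.57 and 6.41. All 8 class II genes tested were lower with IFNa. Shared targets differed in degree. Gbp2 ran from 4081 to 6931 CPM (median 4739) with IFNg and from 584 to 1478 CPM (median 956) with IFNa, and 13 of 19 GTPase genes were lower with IFNa (68.4%), 0 higher, among them Gbp2b (-6.46). Over untreated wells, 636 genes were higher with IFNg (5.49%) and 850 lower (7.34%). Socs1 rose by 7.20 with IFNg and 2.03 with IFNa, Irf1 by 4.51 and 1.98, and Cxcl9 by 7.14 and 2.63. Serpina3g, a protease inhibitor, was lower with IFNa than with IFNg by 6.06.

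**Figure D5:**
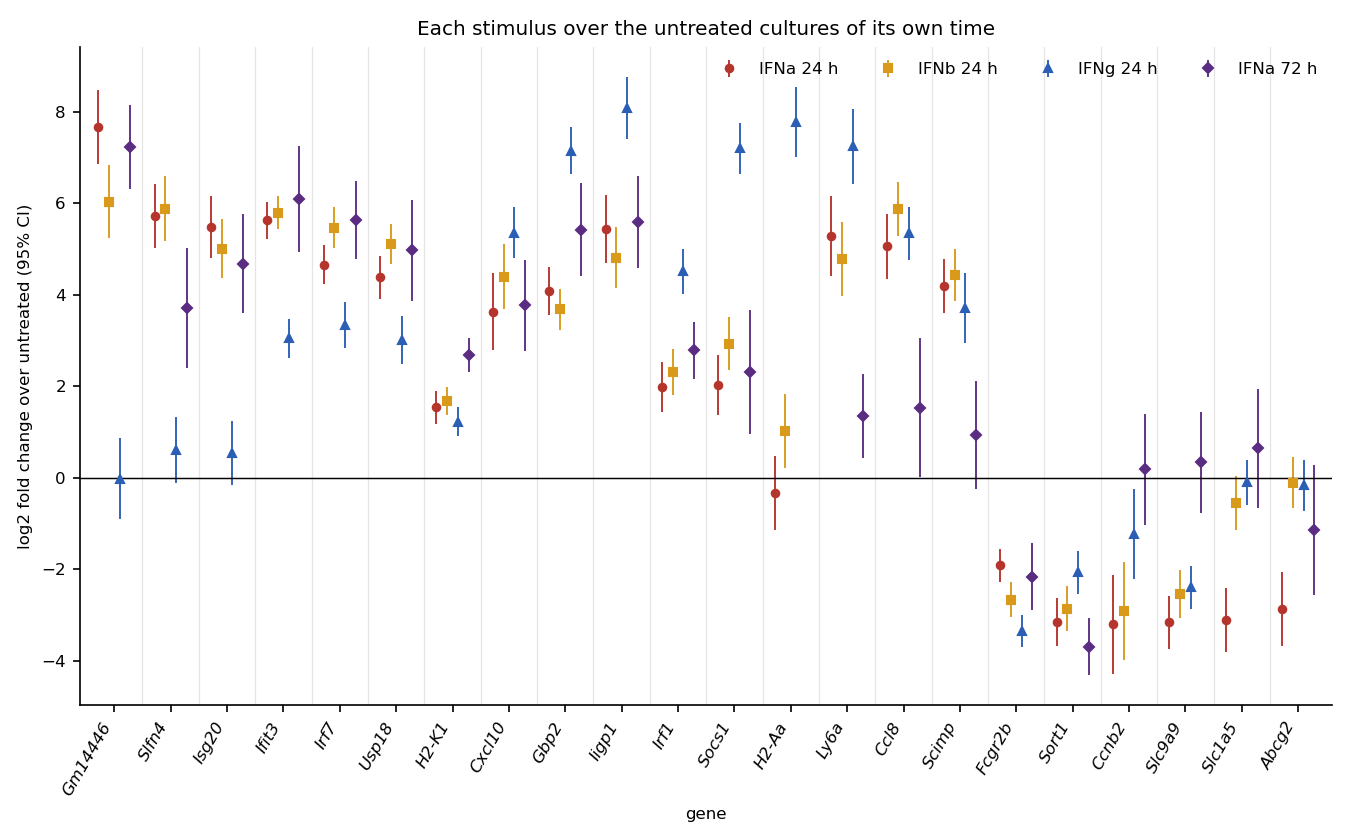
Log2 fold change over untreated cultures of the same duration, with 95% confidence intervals, for 22 genes with IFNa, IFNb and IFNg at 24 h and IFNa at 72 h. IFNa shares no plate with IFNb or IFNg, so its effects rest on other untreated wells than theirs. H2-Aa at 72 h is not drawn because it was listed at 0 with IFNa, and Gm14446, Slfn4 and Isg20 lie under 1 with IFNg only.

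Cultures kept with IFNa for 72 h, which share no well or control with those of 24 h, show the response at a later time. The 72 h IFNa wells sat at other positions than the untreated wells of their plates. Well position and IFNa cannot be told apart in any 72 h effect. At 72 h, 761 of 11005 genes tested were called (6.92%), 406 higher (3.69%) and 355 lower (3.23%), with a median of -0.06. The cells of the 72 h plates were all of the lot Sciencell_May16. Of 10679 genes tested at both durations, 520 were higher at 24 h and 396 at 72 h, and 275 were higher at both, 52.9% of the former and 69.4% of the latter. Of the same genes 1264 were lower at 24 h and 353 at 72 h, and 163 were lower at both, 12.9% of the former and 46.2% of the latter. The number of falls at 24 h depends on the scaling (1317 of all genes tested, 1022 with size factors and 670 after quantile normalization), and the overlap under other scalings was not tested. The antiviral core stayed up: Ifit3 ran from 1696 to 4916 CPM (median 4373) at 72 h against 0.835 to 1538 CPM (median 77.4) untreated (6.10), Mx1 rose by 6.03, Oasl1 by 6.11, Rsad2 by 5.87 and Gm14446 by 7.23. Among the falls, Sort1 ran from 3.09 to 39.5 CPM (median 19.1) against 79.2 to 291 CPM (median 197) (-3.69) and Cd33 was at -3.84.

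A direct test of the difference between the 24 h and 72 h effects called 203 of 12417 genes (1.63%), 67 with the higher effect at 24 h (0.54%) and 136 with the lower (1.1%). Without a plate term 41 were called, 20 higher and 21 lower, and after quantile normalization 130, 69 higher and 61 lower, so neither the count nor the excess of lower effects held under each setting. Ly6a ran from 23.3 to 318 CPM (median 132) at 24 h and from 0 to 32.7 CPM (median 0.996) at 72 h with IFNa, with effects of 5.29 and 1.35 (difference 3.93, adjusted p 0.000119). At 72 h Ly6a was not called, but it was without 72 h culture 4 (1.70), 5 (1.58) or 7 (1.58), after quantile normalization (1.35), without a variance trend (1.35) and with cultures of at least 2 M mapped reads (1.66). Scimp, an adaptor of MHC class II signalling, ran from 19.4 to 46.8 CPM (median 30.4) and from 0 to 26.6 CPM (median 1.2) (difference 3.27). The chemokine genes Ccl8 and Ccl2 had effects of 5.06 and 2.12 at 24 h and 1.53 and -0.30 at 72 h (differences 3.52 and 2.42). Without the plate term neither difference was called (Ccl8 1.47, Ccl2 2.85), and Ccl8 was called at 72 h (3.37). In all 5 of 17 chemokine genes differed, all with the higher effect at 24 h, and 4 of the 5 were not called without the plate term. H2-K1 was at 1.54 and 2.69 (difference -1.15), a call that ended without the plate term (-1.15), with the library pool as block (-0.95) or after quantile normalization (-0.92). Its 24 h effect was larger on plate 2, which carried the lot of the 72 h plates, than on plate 1. Whether the difference goes with lot was not tested. Of 23 MHC class I genes tested, 2 had the lower effect at 24 h (8.7%), with a list median of -0.18 beside -0.16 for all genes. Of 30 proliferation genes tested 5 had the lower effect at 24 h (16.7%), with a median of -1.42, and none of the 5 was called without the plate term. Ccnb2 went from -3.20 at 24 h to 0.18 at 72 h (difference -3.39), a call that ended without the plate term (-1.77) or with cultures of at least 2 M mapped reads (-3.13), and of 29 proliferation genes tested at 72 h, 0 were lower and 1 higher. At 72 h the IFNa wells sat at other positions than the untreated wells of their plates, in the middle or at the right edge against the top edge or a corner on 1 plate and at the bottom edge against the top edge on the other. At 24 h the 4 untreated wells at a left or right edge had Top2a at 7.31, 46.5, 55.7 and 69.3 CPM. Untreated wells at the top edge, all on plates without IFNa, had 137, 131, 131, 185 and 247 CPM, and the corner well had 44.1 CPM. Well position and IFNa therefore cannot be told apart at 72 h, for proliferation or for any other gene. The same holds for the differences between 24 h and 72 h, which use the 72 h wells. Untreated cultures differed as well, with Top2a from 7.31 to 822 CPM (median 344) at 24 h and from 0 to 463 CPM (median 55.9) at 72 h. Slc1a5 fell at 24 h only, -3.10 against 0.65 (difference -3.75, adjusted p 0.000463), and so did Slc9a9, -3.16 against 0.34 (difference -3.50, not called without the plate term at -2.12).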

How the data were processed

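RNA was sequenced from single wells of cultured mouse microglia. The deposited table gives CPM per gene (reads of a gene scaled to the mapped reads of a culture, made by the authors), from reads that the submitters' processing notes assign with Salmon 0.7.1 to Ensembl 81 transcripts, and 378 of its 784 columns were not used because no comparison needed them. The table of brain microglia was left out. Groups followed the labels. With limma 3.58.1 in R 4.3.3, log2(CPM + 1) of genes above 5 CPM in at least 4 cultures was fitted with plate as a block and an intensity trend, and p was adjusted by Benjamini-Hochberg. A gene was called at adjusted p under 0.05 and a log2 difference of at least 1. The fit was tested on simulated data. Depth was estimated from the smallest steps between values, and 1 read at 1.76 M reads is 0.567 CPM.

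Named genes are the 20 largest rises and 15 largest falls with a mean of at least 20 CPM in the higher group and all 8 IFNa cultures on one side of the untreated median, the 6 largest each way in other comparisons, and members of lists. Members and lists were chosen with earlier results of these data known. The rule, tests and main alternatives (block, pseudocount, filter, scaling, variance trend, call rule, depth, single cultures) were set before these fits were run, with those earlier results known. Plate 1 alone, plate 2 alone and the leaving out of edge wells were chosen after seeing the data. Edge wells are those labelled as edge, so the untreated corner well stayed in that fit. Tables and figures used Python 3.11.15, numpy 2.4.6, pandas 2.3.3 and matplotlib 3.10.9.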

Additional observations from a re-analysis of the deposited data

Results flagged for a closer look

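For 11 of 182 named genes with IFNa at 24 h (6.04%), 1 culture stood far from the other 7. Chance flags about 1 in 20 groups, so about this share is expected without any cause. The lowest culture stood apart for Ms4a4c (245 CPM), Ccl8 (6.81), Cd109 (0), Igtp (162), Fcgr2b (32.7), Tpx2 (95.6), Mcm2 (11.9) and Pgam1 (201), and the highest for Rgs7bp (4.18 CPM), Cd9 (212) and Itgam (72.1). Cultures 5 and 7, with estimated depths of 2.27 M and 1.76 M mapped reads, held 3 of these each. At 72 h the lowest IFNa culture stood apart for Ifit3b (406 CPM).

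The effect of IFNa differed between 24 h and 72 h in a limma test of the difference (Benjamini-Hochberg over 12417 genes) for these named genes, given as the 24 h effect minus the 72 h effect on the log2(CPM + 1) scale. At 72 h well position and IFNa cannot be told apart. Positive differences were Ly6a 3.93, Ccl8 3.52, A530064D06Rik 3.45, Klrk1 3.45, Scimp 3.27, A630033H20Rik 3.03, Ccl2 2.42, Cxcl9 1.97, Cxcl11 2.14, Ccl9 1.46, Cfb 1.73, Marco 2.12. Negative differences were Slc1a5 -3.75, Cdca3 -3.74, Rn7sk -3.56, Gm16933 -3.54, Slc9a9 -3.50, Spc25 -3.41, Ccnb2 -3.39, Ccna2 -2.71, Ube2c -2.75, Cenpf -2.92, Tyms -2.69, H2-Q6 -2.13, H2-K1 -1.15, Lgals3bp -1.58, Ly6e -1.16, Fn1 -2.81, Psat1 -1.49. Some of these were not called without a single IFNa culture: A630033H20Rik without 24 h culture 1 (2.96), 24 h culture 2 (3.00), 24 h culture 5 (2.71), 24 h culture 6 (3.02), 24 h culture 8 (2.87), 72 h culture 4 (2.99), 72 h culture 5 (3.01), 72 h culture 6 (2.37), 72 h culture 7 (2.95); Rn7sk without 72 h culture 5 (-2.98); Gm16933 without 72 h culture 5 (-3.27), 72 h culture 7 (-3.41); Spc25 without 24 h culture 4 (-3.08), 24 h culture 5 (-3.22), 24 h culture 7 (-3.14), 72 h culture 4 (-3.07), 72 h culture 7 (-2.91); Cxcl9 without 72 h culture 6 (1.87); Cxcl11 without 24 h culture 1 (1.94), 24 h culture 2 (2.08), 24 h culture 3 (1.82), 24 h culture 4 (2.12), 24 h culture 6 (1.88), 72 h culture 5 (2.12), 72 h culture 6 (2.12), 72 h culture 7 (2.12); Ccl9 without 72 h culture 5 (1.00); Ccna2 without 72 h culture 6 (-2.13); Ube2c without 24 h culture 4 (-2.37); Tyms without 24 h culture 4 (-2.39), 24 h culture 5 (-2.54), 24 h culture 7 (-2.54), 72 h culture 5 (-2.13); Ly6e without 24 h culture 4 (-1.09), 72 h culture 3 (-1.05); Cfb without 24 h culture 3 (1.68), 24 h culture 6 (1.65), 24 h culture 7 (1.67), 72 h culture 4 (1.47), 72 h culture 6 (1.31), 72 h culture 7 (1.65). Without the plate term 22 of the 29 were not called: Ccl8 1.47, A530064D06Rik 2.18, A630033H20Rik 3.01, Cdca3 -1.50, Gm16933 -3.70, Slc9a9 -2.12, Spc25 -2.09, Ccl2 2.85, Cxcl11 2.32, Ccl9 1.56, Ccnb2 -1.77, Ccna2 -1.17, Ube2c -1.02, Cenpf -1.47, Tyms -2.29, H2-Q6 -1.99, H2-K1 -1.15, Lgals3bp -0.89, Ly6e -0.91, Cfb 1.93, Psat1 -0.89, Marco 2.14. Calls also ended with the library pool as block (A630033H20Rik 3.01, Gm16933 -3.01, Cxcl11 1.87, Ube2c -2.35, Tyms -2.49, H2-K1 -0.95, Cfb 1.61), with cultures of at least 2 M mapped reads (Spc25 -2.41, Ccnb2 -3.13, Ube2c -2.32, Cenpf -2.61, Cfb 1.38), after quantile normalization (A630033H20Rik 2.77, Gm16933 -3.13, Cenpf -2.46, Tyms -2.15, H2-K1 -0.92), with log2(CPM + 0.25) (Cxcl9 1.54, Cxcl11 2.40, Cfb 1.72), without the filter on low values (A630033H20Rik 3.03, Gm16933 -3.54, Spc25 -3.41, Cxcl11 2.14), with size factors (Ly6e -1.08) and without a variance trend (A630033H20Rik 3.03).

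The effect at 24 h differed between plate 1 and plate 2 for further named genes, given as plate 1 minus plate 2: Ifit3b -2.25, Cmpk2 -2.93, Mx1 -2.59, Rsad2 -2.75, Ifit1 -2.20, Oasl1 -1.87, Eif2ak2 -1.68, H2-Q6 -1.45, H2-Q7 -1.79, Cxcl10 -4.12, Cd69 -3.37, and, with the higher signed effect on plate 1, Ifi202b 2.25, Eno1 1.06. Plate and cell lot cannot be told apart.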

How the results depend on the processing

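The 1892 genes called with IFNa at 24 h became 898 with log2(CPM + 5), where the larger pseudocount shrinks the fold changes of weakly expressed genes, 3301 with no minimum fold change, which asks for less by construction, and 1132 on plate 2 alone, with fewer cultures. Leaving out each IFNa culture in turn gave 1731 to 2011. The other alternatives stayed within 1.5 times the count, among them no plate term, library pool as block, both filters, size factors, quantile normalization, deeper cultures and the leaving out of edge wells. The 14 genes that differed from IFNb became 126 without a plate term, 22 after quantile normalization and 7 with cultures of at least 2 M mapped reads (leave-one-out 15 to 28). The 1077 that differed from IFNg became 1827 without a plate term (leave-one-out 1036 to 1151). The 761 at 72 h stayed within 1.5 times under each alternative (leave-one-out 637 to 746). The 203 that differed between 24 h and 72 h became 41 without a plate term and 130 after quantile normalization (leave-one-out 139 to 233). Where no construction is given, the cause was not tested.

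For 269 single genes with IFNa at 24 h, 6586 of 6937 values under the alternatives kept their direction and their side of the threshold, 288 kept the direction but lost the call and 58 gained it. Against IFNb it was 151 of 170 values, against IFNg 551 of 551, at 72 h 369 of 377 and between the times 716 of 805. Of the single genes, 4 changed sign. Cd69 was -0.078 and Tnf -0.18, each both when plate 2 was left out and on plate 1 alone. Ifi202b was -0.40 without a plate term, and so was Hal against IFNb (-1.53). The causes were not tested. No paired analysis was possible because the replicate numbers count the wells of a group and link no well to another, so the plate served as the block.

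Other calls with IFNa at 24 h that ended for genes of the Results section were, on plate 1 alone, Cxcl14 (-0.86), H2-DMa (-0.20), Hmgcs1 (-0.95), Irf9 (0.88) and Tyk2 (0.77), and on plate 2 alone Ccnb2 (-3.25), Rrm2 (-1.75), Plk1 (-2.62), Top2a (-1.55), Aldoc (-1.61), C3 (1.56), Cx3cr1 (-1.19), Dhx9 (-0.89), Irf2 (0.94) and Sqle (-1.63), with fewer cultures in each fit. With log2(CPM + 5) Aldoc (-0.92), Dhx9 (-0.75), H2-DMa (-0.76), Sqle (-0.93) and Tyk2 (0.91) were not called, with log2(CPM + 0.25) Cd69 (1.52), after quantile normalization Dhx9 (-0.81), H2-DMa (-0.86) and Irf9 (0.94), without a plate term H2-DMa (-0.99) and Irf2 (0.93), with cultures of at least 2 M mapped reads Irf9 (0.93), without wells at the plate edge Irf9 (0.97) and Tyk2 (0.84), and with all 24 h cultures without LPS combinations in the fit H2-DMa (-0.94), Irf2 (1.00) and Tyk2 (0.98). Leaving out the wells of plate 1 ended the call of Kdr (1.40). Among genes named only under the closer look, it also ended that of Cxcl11 (0.78). Eif2ak2 (0.55), Pgam1 (-0.95) and Tyms (-1.50) were not called on plate 1 alone, nor Ccna2 (-2.54), Ube2c (-2.01) and Tyms (-1.24) on plate 2 alone. Pgam1 was not called with size factors (-0.91) or without culture 5 (-0.96). Tyms was not called with library pool as block (-1.13), log2(CPM + 5) (-0.75), at least 2 M mapped reads (-1.14) or without culture 4 (-1.07). Calls were gained by Jak2 with size factors (1.06), without a plate term (1.32), without edge wells (1.1) and on plate 2 alone (1.09), by Socs3 without a plate term (1.19), by Stat3 with cultures of at least 2 M mapped reads (1.03) and by Ifitm2 on plate 2 alone (-1.29). Against IFNb, Ms4a4b was not called with log2(CPM + 0.25) (-2.54), without the filter (-2.63) or with cultures of at least 2 M mapped reads (-2.70).

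The sequencing depth, 1.76 M to 12 M mapped reads with IFNa, limits weakly expressed genes. At 1.76 M reads 1 read is 0.567 CPM, so a value of 0 does not show absence.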
